A study of Mus musculus with 15 samples.

Results

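Transcripts of 5 Reg genes, Reg3g, Reg3b, Reg3a, Reg1 and Reg4, were followed in the ileum of mice that had been given proanthocyanidins (PAC) by gavage. The genes were chosen by symbol, and the rule uses no measured value, although earlier results of these data were known when the family was picked. They are 5 of the 17752 genes listed in any mouse, and all 5 were among the 14386 genes that passed the filter on low counts. Reg2 and Reg3d, the remaining genes of the family in the files, did not pass it, with at most 1 and 10 expected counts per mouse.

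RNA had been measured in the intestinal tissue of 15 female C57BL/6 mice, labelled as aged 8 weeks, in 3 groups of 5. All mice were gavaged every 2 days over 10 days, either with water or with 200 mg/kg of PAC from grape, and no disease model, transgene or other agent was added. The PAC groups are labelled low and high molecular weight and are called low PAC and high PAC here. According to the methods, the mice were C57BL/6JOlaHsd, the tissue was ileum, the mice ate a purified diet, and the only fractions given to mice were of low and medium mean degree of polymerization, so the high PAC group was taken to be the medium fraction. PAC are polymers of flavan-3-ol units, and these fractions differ in the mean number of units per chain. The comparisons asked whether PAC of either polymer size alters ileal gene expression. The mice carry the numbers 1 to 5 in each group, and the labels do not say that these numbers pair them.

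Reg proteins are small secreted C-type lectins of the gut and pancreas. Mouse Reg3g and Reg3b, made by enterocytes and Paneth cells, bind bacteria and limit their contact with the epithelial surface, and their transcription is known to be driven by microbial signals through MyD88 and by interleukin-22 through STAT3. Reg1 was first described in the pancreas as a regenerating islet protein, and Reg4 is known from enteroendocrine, goblet and deep crypt cells.

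In this tissue the family spanned a wide range of levels. FPKM, the fragments of a gene scaled by its length and by the size of the library, allows genes to be compared per length. Reg3b was among the most abundant transcripts, ranking between 5 and 84 of all genes by FPKM in a mouse, and Reg3g ranked between 14 and 308. Reg4 ranked between 550 and 2222 and Reg3a between 964 and 1727. Reg1 ranked between 10039 and 12278, with 12 to 39 expected counts per mouse. Reg2 had 0.09 FPKM or 0, the value given to a gene missing from a file, and Reg3d had 0.08 to 0.85 FPKM. Together the 5 genes took 0.0927% to 1.07% of all counts in a mouse, and Reg3b and Reg3g made up between 86.4% and 99.1% of their summed FPKM.

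The genes lie in 2 places in the genome. By the GENCODE annotation of GRCm38, the build to which the reads were mapped, Reg3b (chromosome 6, 78370657 to 78373466, plus strand), Reg3d, Reg3a (78380709 to 78383827, plus strand), Reg2, Reg1 (78422711 to 78428667, plus strand) and Reg3g (78466269 to 78468872, minus strand) follow each other in 98.2 kb with no other protein coding gene between them. Reg3b and Reg3g, at the ends of this cluster, are 92.8 kb apart. Reg4 lies on chromosome 3 (98222156 to 98236748, plus strand).

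The sequences around the start sites are shown because Reg3g and Reg3b moved together from mouse to mouse while Reg3a, which lies between them, and Reg4 did not, as described further on. Each runs from 250 bases before to 50 bases after the RefSeq start of the gene in GRCm38.p6, 5′ to 3′ on the strand of the gene. Capitals mark, in Reg3g and Reg3b, the longest run of bases that they share and, in Reg3a, the longest run shared with Reg3g. No run is marked in Reg4, whose longest run shared with Reg3g was 6 bases. The regions are chr6:78468825-78469124 (minus) for Reg3g, chr6:78370635-78370934 (plus) for Reg3b, chr6:78380459-78380758 (plus) for Reg3a and chr3:98221906-98222205 (plus) for Reg4.
Reg3g: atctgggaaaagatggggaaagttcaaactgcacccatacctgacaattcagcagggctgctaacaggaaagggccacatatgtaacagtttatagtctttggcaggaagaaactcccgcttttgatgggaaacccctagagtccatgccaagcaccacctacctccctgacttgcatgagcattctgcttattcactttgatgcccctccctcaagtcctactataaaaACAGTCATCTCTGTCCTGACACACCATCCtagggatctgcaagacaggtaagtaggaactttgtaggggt
Reg3b: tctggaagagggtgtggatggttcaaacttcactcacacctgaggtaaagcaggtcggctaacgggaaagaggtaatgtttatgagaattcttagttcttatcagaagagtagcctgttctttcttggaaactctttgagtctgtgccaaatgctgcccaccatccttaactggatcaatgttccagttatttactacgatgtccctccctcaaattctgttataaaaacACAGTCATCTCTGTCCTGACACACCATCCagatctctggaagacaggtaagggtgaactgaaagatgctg
Reg3a: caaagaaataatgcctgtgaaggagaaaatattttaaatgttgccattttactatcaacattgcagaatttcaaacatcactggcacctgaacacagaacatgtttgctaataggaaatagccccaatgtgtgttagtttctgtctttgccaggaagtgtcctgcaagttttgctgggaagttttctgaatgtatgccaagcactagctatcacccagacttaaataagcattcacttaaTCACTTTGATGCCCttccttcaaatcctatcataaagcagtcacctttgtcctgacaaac
Reg4: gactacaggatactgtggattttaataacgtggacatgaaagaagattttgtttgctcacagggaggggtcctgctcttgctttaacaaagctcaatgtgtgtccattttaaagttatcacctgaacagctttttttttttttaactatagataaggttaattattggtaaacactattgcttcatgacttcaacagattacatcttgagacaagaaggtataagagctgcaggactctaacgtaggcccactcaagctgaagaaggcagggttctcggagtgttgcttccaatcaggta

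Reg3g and Reg3b were identical at 69.0% of aligned positions of these promoters and shared a run of 29 bases that spans the start site. The identity of Reg3g to Reg3a was 55.2%, with a longest shared run of 14 bases. This run begins at position -57 from the start site in Reg3g but at -10 in Reg3a. The longest run that Reg3b shares with Reg3a begins at -9 in Reg3b and at 37 in Reg3a. By these runs, the window of Reg3a is offset against those of Reg3g and Reg3b. How far this offset bears on the identity and motif matches of Reg3a was not tested. To Reg1, which went with Reg3g across mice more than Reg3a did, the identity of Reg3g was 53.6%, with a run of 10 bases. To Reg4, on another chromosome, it was 49.1%, with a longest shared run of 6 bases. Apart from Reg3g with Reg3b, all pairs of the 7 Reg genes lay between 49.1% and 58.5%, so the values for Reg3a and Reg1 do not stand out. TATAAA on the strand of the gene was found 27 bases before the start of Reg3g and 29 bases before that of Reg3b, and also in Reg1, but not in the windows of Reg3a and Reg4. It occurs in 8.32% of the 32851 promoters of the table. The palindromic STAT motif TTCNNNGAA, searched on both strands, had 1 match in Reg3b, TTCTTGGAA at 129 bases before the start, and none in Reg3g, Reg3a, Reg1 or Reg4 (8.30% of promoters). The NF-kB consensus motif, searched on both strands, had 1 match in Reg3g, GGGAAACCCC at 123 bases before the start, which matches on either strand, and none in the promoters of the other 4 genes (4.51% of promoters). Such matches are descriptions of letters and not of bound sites.

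The similarity did not extend over the length of a read. Along the coding transcripts, Reg3g and Reg3b were identical at 68.6% of aligned positions and their longest identical run was 35 bases. No stretch of 100 bases, the length of a read, was shared by any of the 5 genes with another Reg gene or with any other annotated gene.

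The library totals ranged from 15963086 to 17903886 expected counts. Markers of the distal ileum were present in every mouse (Fabp6, the ileal bile acid binding protein, had a mean of at least 5679 FPKM in each group). Of 12 markers of pancreatic acinar cells, which also make Reg proteins, Cela3b, Cpa1, Prss2, Ctrb1 and Cel were at most at 0.08 FPKM and Cela2a, Pnlip, Amy2a5 and Try5 were not listed in any mouse. The others were Cela1 with 1.35 to 2.84 FPKM, Cpb1 with 0.04 to 0.47 FPKM and Clps with 134 to 388 FPKM. The summed FPKM of 8 markers of follicle B cells varied within each group, from 8.03 to 163 with water, 8.34 to 80.4 with low PAC and 6.09 to 240.0 with high PAC. Of the markers of the proximal small intestine, Gata4, a transcription factor of the jejunum, had 7.09 ± 5.12 FPKM (SD, n = 5) with water, 2.76 ± 2.42 with low PAC and 1.33 ± 1.63 with high PAC (adjusted p = 0.211 in edgeR for high PAC against water). Of the 6 tested markers of that list, 4 were below 0 and 2 above 0 with high PAC against water, the latter being Fabp1 (log2 fold change 0.46) and the iron exporter Slc40a1 (0.38). In edgeR 0 markers of the distal, proximal, acinar and B cell lists passed an adjusted p of 0.05 in any comparison. In DESeq2 1 proximal marker, Apoa4, passed it with high PAC against water, beside 2.54% of the genes given an adjusted p there. At an unadjusted p under 0.05 in edgeR there were 2 of 6 proximal markers with high PAC and 1 with low PAC against water, all lower. Of all genes, 10.4% were lower at that p with high PAC, and 3.61% passed in either direction with low PAC. The other lists had 0, although under upper-quartile scaling 1 distal marker passed, higher, with high PAC against water, beside 1505 of all 14386 genes. The part of these markers in the results was not tested. As each library is bulk tissue, fewer cells of a type and less RNA per cell cannot be told apart.

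Among the members, Reg4 had the largest difference relative to its standard error. Its FPKM in the water mice 1 to 5 was 61.6, 51.7, 35.5, 72.9 and 85.4. The low PAC mice had 103, 80.7, 78.0, 109 and 83.2. The high PAC mice had 111, 115, 138, 96.6 and 131. Every high PAC mouse was above every water mouse, whereas 2 low PAC mice were above the highest water mouse and 4 high PAC mice were above the highest low PAC mouse. The means were 61.4 ± 19.2 with water, 90.8 ± 14.2 with low PAC and 118 ± 16.5 with high PAC (SD, n = 5 each).

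High PAC against water gave a log2 fold change of 0.85 for Reg4 (standard error 0.17), a 1.81-fold higher level with a 95% confidence interval of 1.40 to 2.33. The unadjusted p of 0.000158 placed it at rank 17 of the 14386 genes, but after adjustment over all of them p was 0.133 in edgeR's quasi-likelihood test, so the gene was not called. DESeq2 called it (adjusted p = 0.00181) and limma on log2(FPKM + 0.1) did not (adjusted p = 0.0764). The two-sided exact permutation test on log2(FPKM + 0.1) gave p = 0.0079, the smallest that 252 splits of 10 mice allow. FPKM ranges that did not overlap in this direction were found for 3.99% of all genes tested.

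For Reg4 in low PAC against water the log2 fold change was 0.52, with a 95% confidence interval of 0.15 to 0.88 (adjusted p = 0.976 in edgeR, unadjusted p = 0.00892, exact permutation p = 0.0317). Between high and low PAC it was 0.34 with a 95% confidence interval of -0.03 to 0.70 (adjusted p = 0.896 in edgeR, exact permutation p = 0.0397). The low PAC mice thus lay between the other groups in mean, and neither of these differences held after adjustment. Markers of enteroendocrine and goblet cells, which are known to hold Reg4, and of Paneth cells differed less in level. Deep crypt cells had no list of their own. The summed FPKM of 9 enteroendocrine markers had a median of 176 with water, 191 with low PAC and 199.9 with high PAC. For 8 goblet cell markers the medians were 10120, 11870 and 11850, and for 9 Paneth cell markers 42910, 37520 and 46050. With high PAC against water, 3 of the enteroendocrine markers were fitted above 0 and 6 below 0, with a median log2 fold change of -0.06. Of the goblet cell markers 6 were above and 2 below 0 (median 0.16), and of the Paneth cell markers 7 and 2 (median 0.11). Gcg, the proglucagon gene of enteroendocrine L cells, had 39.4 ± 3.07 FPKM with water and 57.6 ± 14.5 with high PAC (SD, n = 5), a log2 difference of 0.45 (adjusted p = 0.202 in edgeR, 0.0450 in DESeq2). The part of these cells in the Reg4 result was not tested.

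Reg3b and Reg3g had lower means with PAC than with water, but with a wide spread within groups neither gene was called in any comparison. In the water mice 1 to 5, Reg3b had 2456, 6224, 4177, 4226 and 3169 FPKM. The low PAC mice had 2047, 9637, 1566, 748 and 1021 FPKM, and the high PAC mice 1369, 833, 4263, 2862 and 1040 FPKM. In low PAC mouse 2 the level was above that of every other mouse of the study, while the other 4 low PAC mice and 3 of the high PAC mice were below the lowest water mouse.

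The Reg3b log2 fold change was -1.06 for high PAC against water (standard error 0.63, adjusted p = 0.423 in edgeR, exact permutation p = 0.0714). Its 95% confidence interval ran from -2.40 to 0.27, so that both a much lower and a slightly higher level were within it. For low PAC against water it was -0.45 (adjusted p = 0.976 in edgeR, exact permutation p = 0.159) and for high against low PAC -0.62 (adjusted p = 0.907 in edgeR, exact permutation p = 0.865). The permutation test compares means of log2(FPKM + 0.1), on which scale limma gave -1.04 for low PAC against water and -0.14 for high against low PAC, and the edgeR fit with the replicate block gave -0.85 and -0.15. Both values against low PAC also depended on low PAC mouse 2. Without it, the log2 fold change of Reg3b was -1.65 for low PAC against water and 0.59 for high against low PAC.

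Reg3g had 940, 3292, 1816, 2131 and 1556 FPKM in the water mice 1 to 5. In the low PAC mice it had 601, 5722, 595, 376 and 352 FPKM, and in the high PAC mice 523, 297, 1568, 1301 and 241 FPKM. The same mouse was again the highest, the other 4 low PAC mice and 3 high PAC mice were below the lowest water mouse, and the groups overlapped. The 95% confidence interval of the Reg3g log2 fold change was -3.02 to 0.22 for high PAC against water, -1.95 to 1.24 for low PAC against water and -2.66 to 0.56 for high against low PAC (adjusted p = 0.393, 0.984 and 0.896 in edgeR, exact permutation p = 0.0556, 0.190 and 0.730). Without low PAC mouse 2, the log2 fold change of Reg3g between high and low PAC turned from -1.05 to 0.67, and that between low PAC and water went from -0.35 to -2.07. With all mice, limma on log2(FPKM + 0.1) gave -0.37 and -1.22 for these comparisons, and the edgeR fit with the replicate block gave -0.27 and -1.06.

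The summed FPKM of the 5 genes, compared as mean log2 FPKM and not by the edgeR fit, was made up mostly of these 2 genes. It had a median of 6098 with water (3510 to 9629), 2285 with low PAC (1300.0 to 15500) and 2057 with high PAC (1299 to 6046). The difference in mean log2 from water was -1.19 with high PAC (exact permutation p = 0.0556) and -1.01 with low PAC (exact permutation p = 0.183). Neither passed 0.05 with all mice. The first passed it without high PAC mouse 3 (-1.51, exact permutation p = 0.0238) and the second without low PAC mouse 2 (-1.61, exact permutation p = 0.0159), and in each comparison the other 9 fits that left out 1 mouse did not pass it. Between high and low PAC the difference was -0.19 (exact permutation p = 0.802), and it was 0.42 without low PAC mouse 2.

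The proportion of Reg3b to Reg3g, a ratio within each mouse, was 2.17 ± 0.29 with water, 2.52 ± 0.69 with low PAC and 2.93 ± 0.81 with high PAC (SD, n = 5 each). In 4 of the 5 high PAC mice it was above the highest water value of 2.61. On the log2 scale high PAC exceeded water by 0.41 (exact permutation p = 0.0397), low PAC exceeded water by 0.18 (exact permutation p = 0.389) and high PAC exceeded low PAC by 0.22 (exact permutation p = 0.389). The first difference had p between 0.0556 and 0.0794 without water mouse 2, 4 or 5 or without high PAC mouse 2 or 5, at a log2 difference of 0.26 to 0.42. Adjustment over the 3 comparisons was not made for these single values. Over all mice, Reg3b changed by 0.817 log2 units for 1 log2 unit of Reg3g within groups (0.781 to 0.852 without any 1 mouse), a description that says that the ratio was lower in the mice with more Reg3g.

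Reg3a and Reg1 were not called in any comparison. Reg3a, which encodes another secreted lectin of the same subfamily, had 52.1, 59.6, 67.9, 44.8 and 53.6 FPKM in the water mice. It had 61.4, 55.2, 44.7, 66.3 and 77.0 FPKM in the low PAC mice and 54.1, 53.5, 73.8, 63.7 and 66.1 FPKM in the high PAC mice. The groups overlapped almost wholly, and low PAC mouse 2, the highest for Reg3b and Reg3g, was below the low PAC median of 61.4. The log2 fold changes were 0.07, 0.08 and -0.01 for high PAC against water, low PAC against water and high against low PAC. The last of these was 0.02 under upper-quartile scaling, and for the first the 95% confidence interval of the fold was 0.855 to 1.28.

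Reg1 rested on few counts, 12 to 39 in a mouse, so counting error is part of its spread. Its FPKM was 0.99, 2.52, 1.41, 2.04 and 2.00 in the water mice, 1.16, 2.93, 1.31, 1.37 and 1.41 in the low PAC mice and 1.21, 1.24, 3.31, 2.87 and 2.46 in the high PAC mice. The groups overlapped, and low PAC mouse 2 was again the highest of its group. The log2 fold changes were 0.22, -0.16 and 0.38 in the same order of comparisons, with 95% confidence intervals of -0.51 to 0.95, -0.91 to 0.58 and -0.35 to 1.11. Leaving out 1 mouse moved these values to between 0.07 and 0.38, between -0.50 and -0.02 and between 0.22 and 0.72.

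**Figure D1:**
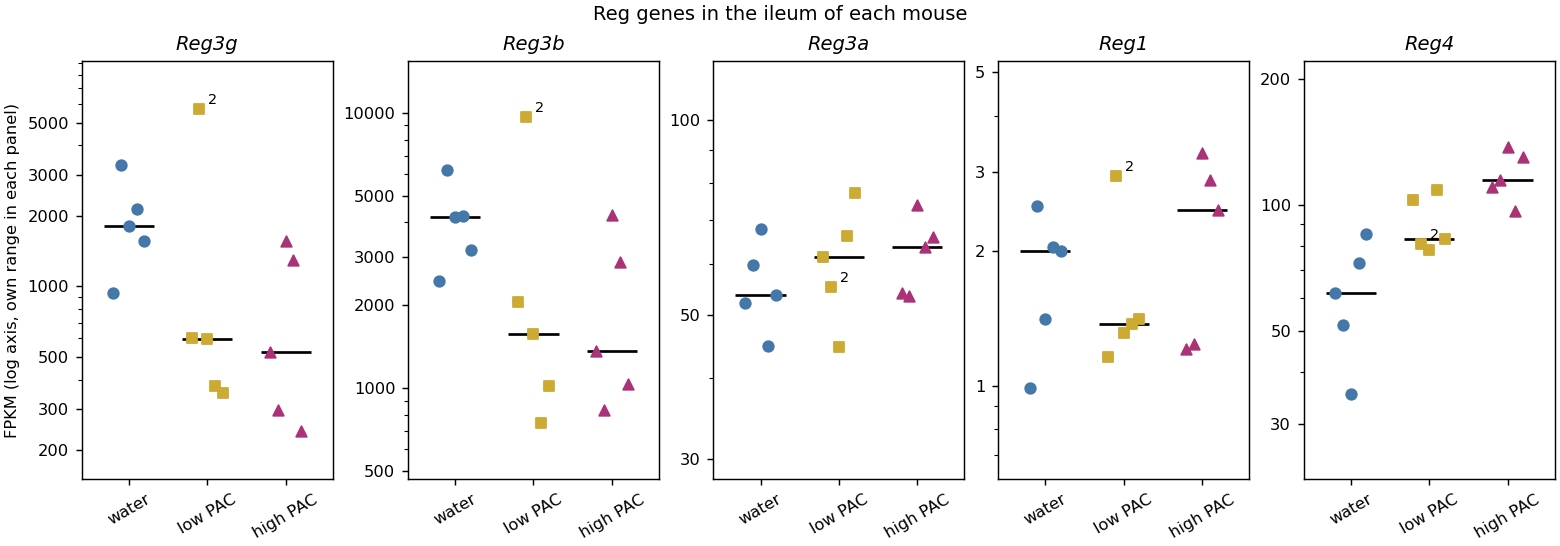
FPKM of the 5 genes in each mouse, on a log axis with its own range in each panel. Points are mice in the order of their numbers, horizontal lines are group medians and the numeral 2 marks low PAC mouse 2, which was far above the rest of its group for Reg3g (5722) and Reg3b (9637) but not for Reg3a or Reg4.

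In count, 0 of the 5 genes had an adjusted p under 0.05 in edgeR in any of the 3 comparisons, beside 0.0139% of all genes tested in high PAC against water and 0% in both of the others. At an unadjusted p under 0.05 edgeR had 1 of the 5 (Reg4) in high PAC against water (14.8% of all genes), 1 (Reg4) in low PAC against water (3.61%) and 0 between high and low PAC (3.89%). DESeq2 called 1 of the 5 in high PAC against water, beside 2.54% of the genes to which it gave an adjusted p, and 0 in the others (0.0139% and 0% of genes). By limma the count was 0 in each comparison, beside 0.0626%, 0% and 0% of genes. The 2 comparisons with water share the water mice.

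**Figure D2:**
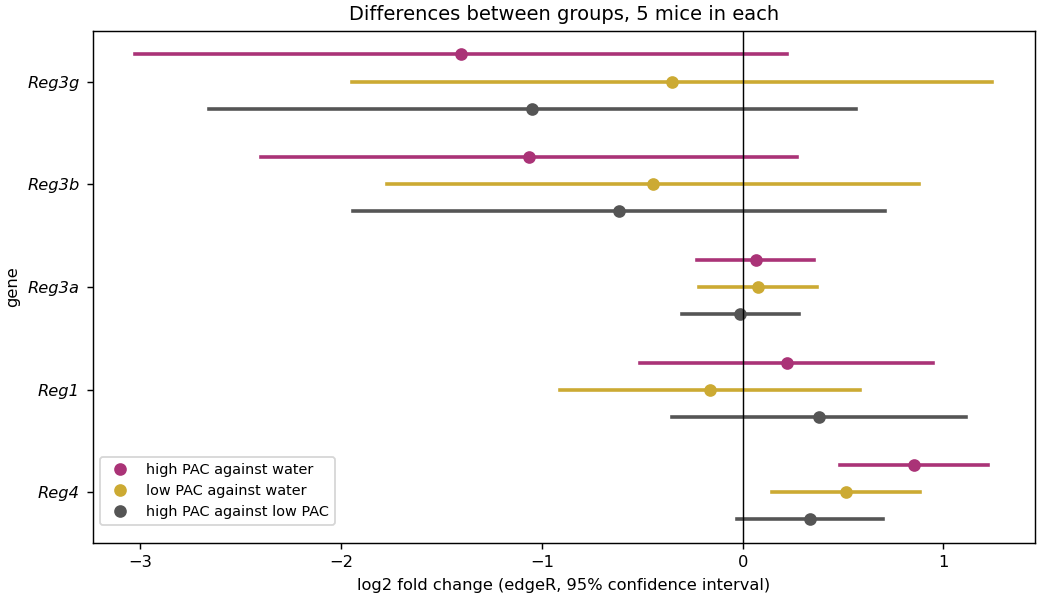
Log2 fold changes of the 5 genes in the 3 comparisons from edgeR, with lines for the 95% confidence intervals. Only the intervals of Reg4 against water, 0.49 to 1.22 with high PAC and 0.15 to 0.88 with low PAC, lie wholly to one side of 0, without adjustment for the number of genes.

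The spread between mice of the same group was widest for Reg3g and Reg3b among the members. Their within-group SD of log2 CPM, counts scaled to library size on a log scale, was 1.26 and 1.06, beside a median of 0.19 over all genes tested, which placed them at rank 143 and 216 of the 14386 genes. Among the 500 genes nearest to Reg3g in mean level, 99.6% had a smaller SD. For Reg4 and Reg3a the SD was 0.31 and 0.24, and Reg1, with its few counts, had 0.54. Set beside the 500 genes nearest to each in mean level, Reg4 still had a larger SD than 95.8% of them, Reg3a than 84.8% and Reg1 than 73.5%, so all 5 lay in the upper part of the spread at their level. The highest low PAC mouse had 16.3 times the Reg3g FPKM and 12.9 times the Reg3b FPKM of the lowest, whereas within the water group these ratios were 3.50 and 2.53.

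**Figure D3:**
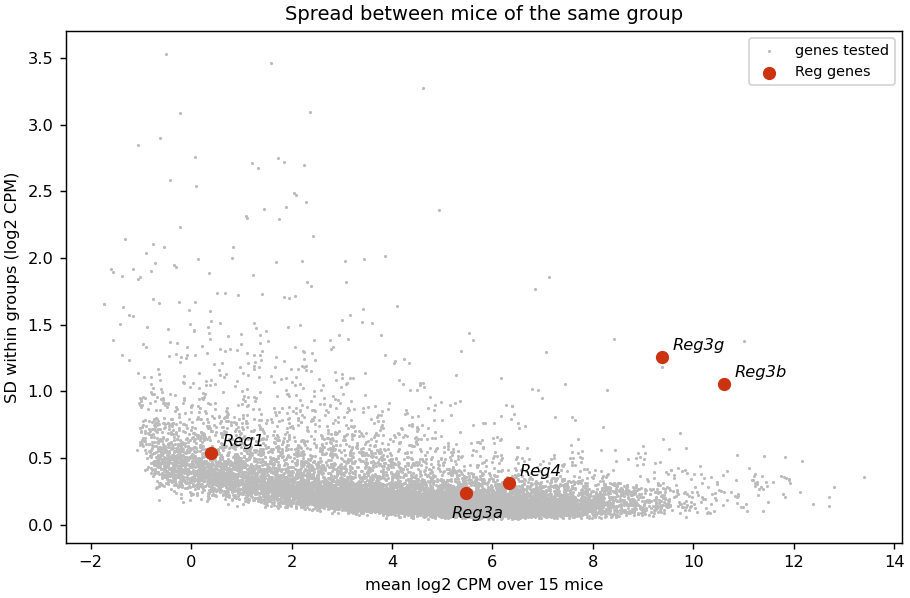
SD of log2 CPM within groups against mean log2 CPM for the 14386 genes tested, with the 5 Reg genes in red. Reg3g and Reg3b lie above nearly all genes of like abundance. Reg4 (0.31) and Reg3a (0.24) lie lower, but above 95.8% and 84.8% of the 500 genes nearest to each in mean level.

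Across the 15 mice, with group means of log2(FPKM + 0.1) subtracted, Reg3g and Reg3b had a Pearson r of 0.973 (permutation p = 2e-05, 0.0002 after adjustment over the 10 pairs of genes) and a Spearman rho of 0.925 (permutation p = 3e-05). Without low PAC mouse 2 and high PAC mouse 3, which were farthest from the median of Reg3g, r was 0.929. Leaving out any 1 mouse gave 0.941 to 0.982. The relation therefore did not rest on the highest mouse.

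Reg1 went with both of them less firmly. The Pearson r was 0.743 with Reg3g (adjusted permutation p = 0.0286, rho 0.543 with permutation p = 0.0538) and 0.741 with Reg3b (adjusted permutation p = 0.0239, rho 0.632 with permutation p = 0.0240). Without low PAC mouse 2 and high PAC mouse 3 these fell to 0.546 and 0.533, so that the relation rested in part on those mice. The calls of both pairs were lost without water mouse 1 or 2, low PAC mouse 2 or high PAC mouse 2 or 3 (adjusted permutation p between 0.0571 and 0.311), and that of Reg3g with Reg1 also without high PAC mouse 4 (0.0536). The values of the other 7 pairs lay between -0.21 and 0.23, with adjusted permutation p of at least 0.729. Among them were Reg3g with Reg4 (r = -0.21) and with Reg3a (r = -0.03), although Reg3a lies in the same gene cluster.

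**Figure D4:**
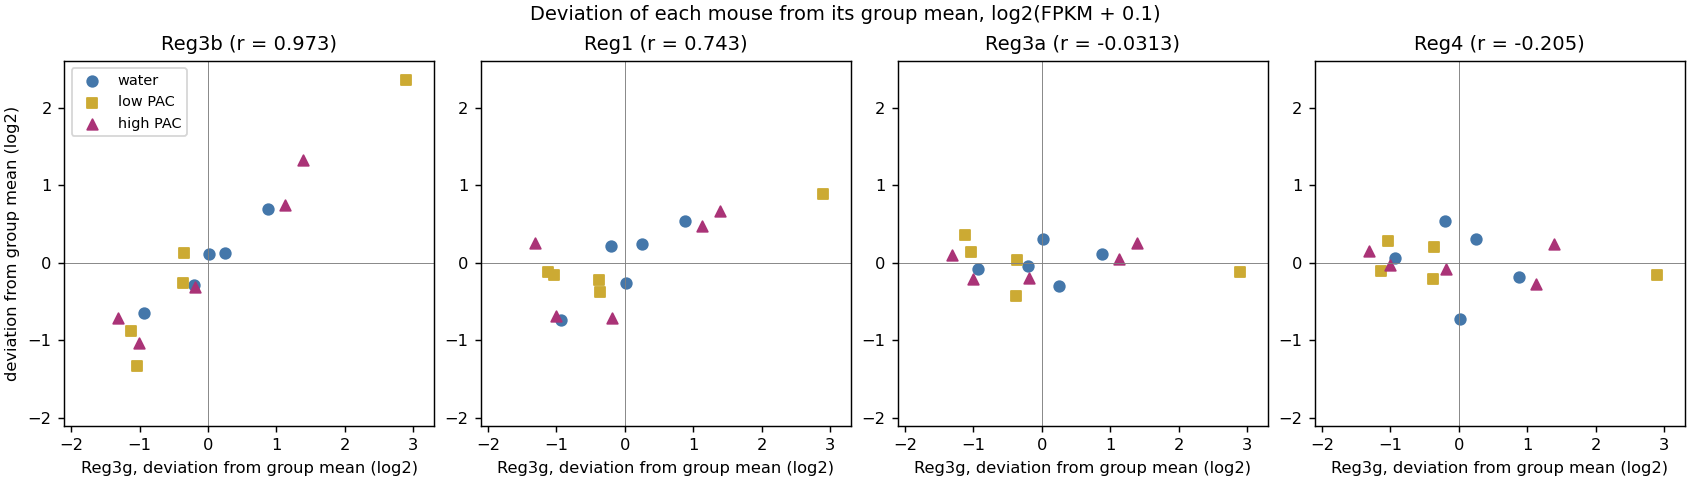
Deviation of each mouse from its group mean in log2(FPKM + 0.1) for Reg3b, Reg1, Reg3a and Reg4 (vertical axes) against Reg3g (horizontal axes). The points of Reg3b lie along a line (r = 0.973), those of Reg1 follow more loosely (r = 0.743) and those of Reg3a and Reg4 do not follow Reg3g.

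The genes most like Reg3g over the 15 mice, by Pearson r of log2 CPM with group means subtracted, were Saa1 (0.957), an acute phase protein of the epithelium, Dmbt1 (0.932), a secreted scavenger receptor that binds bacteria, Il18 (0.915), an epithelial cytokine, Fut2 (0.913), the fucosyltransferase of the gut surface, and Cfi (0.908), complement factor I. The 99th percentile over all genes was 0.673. Without the mouse that deviated most, these values were 0.918, 0.837, 0.786, 0.791 and 0.809. Saa1 ranged from 0 to 165 FPKM, with its highest value in low PAC mouse 2, and Dmbt1 from 64.8 to 327 FPKM. Reg3b was most like Saa1 (0.960), Gna14 (0.922), Cfi (0.915), AA467197 (0.912) and Lrrc42 (0.899), so that Saa1 and Cfi were near both genes. These are correlations over the same libraries and carry no test.

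The other members had other neighbours. Reg4 was most like Tle1 (0.864), a transcriptional corepressor, Kazald1 (0.808), Olfm2 (0.789), Plxdc1 (0.788) and Clec4a2 (0.783). Apart from Tle1 with 6.19 to 11.5 FPKM, these were scarce transcripts of at most 1.70 FPKM. Without the mouse that deviated most, the values were 0.875, 0.583, 0.540, 0.749 and 0.650, so that Kazald1 and Olfm2 fell below 0.605, the 99th percentile over all genes with all 15 mice. For Reg3a they were Mzt1 (0.893), Fam114a2 (0.884), Zbtb44 (0.874), Usp3 (0.872) and Asxl1 (0.869), and for Reg1 Fkbp11 (0.891), a chaperone of the secretory pathway, Rbm20 (0.839), Rdh13 (0.836), Lrfn3 (0.829) and Prom1 (0.828).

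Lists of genes of the pathways and cell types around the Reg genes were described in the same way. Of 14 tested genes of inducible epithelial defence, 7 had an r with Reg3g above the 99th percentile of all genes, and the median r of the list was 0.69 beside 0.02 over all genes. Besides Saa1 and Fut2 these were Duox2 (0.882), an oxidase that makes hydrogen peroxide, its maturation factor Duoxa2 (0.870), Lypd8 (0.799), which binds flagellated bacteria, Gpx2 (0.773), a glutathione peroxidase, and Pigr (0.746), the receptor that carries immunoglobulin A across the epithelium. Lcn2, at -0.19, did not go with Reg3g. Low PAC mouse 2 had the highest Saa1 (165 FPKM) and Fut2 (6.78 FPKM) of all mice, and the count and median of this list were not computed without it. Of 20 genes of the MyD88 and NF-kB axis, Il18 and Cd14 (0.890), a lipopolysaccharide coreceptor, were above the 99th percentile, and Myd88 itself had 0.36. Of 16 tested genes of the interleukin-22 and STAT3 axis none was, with a highest value of 0.61 for Il1b. The list has 22 members, and Il22, Il23a, Il12b, Il6, Il17a and Il17f did not pass the filter on low counts. Interleukin-22 itself was therefore not assessed. With Reg4, the median r of the inducible defence genes was -0.18 and every one of the 14 was below 0.

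Paneth cell markers, which include the defensins Defa17 and Defa22, had a median r of 0.37 with Reg3g and 0.51 with Reg4, and Lyz1, the Paneth cell lysozyme, reached 0.67 with Reg4. Of the other lists, Clps of the acinar list (0.72), Spink4 of the goblet list (0.69) and Chga of the enteroendocrine list (0.66) were also above the 99th percentile for Reg4, while the goblet and enteroendocrine medians with Reg4 were 0.03 and 0.30 and that of the 2 acinar genes was 0.42. Enterocyte markers had a median of -0.33 with Reg3g, led by Fabp2, a fatty acid binding protein (-0.85). In the proximal list the values with Reg3g ran in both directions, from -0.88 for the lactase gene Lct to 0.82 for Slc40a1, which was above the 99th percentile. The 7 markers of the distal ileum had a median of -0.52 with Reg4, from -0.72 for the bile acid transporter Slc10a2 to 0.22 for the peptide gene Guca2a. Follicle B cell markers lay between -0.17 and -0.04 with either gene.

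**Figure D5:**
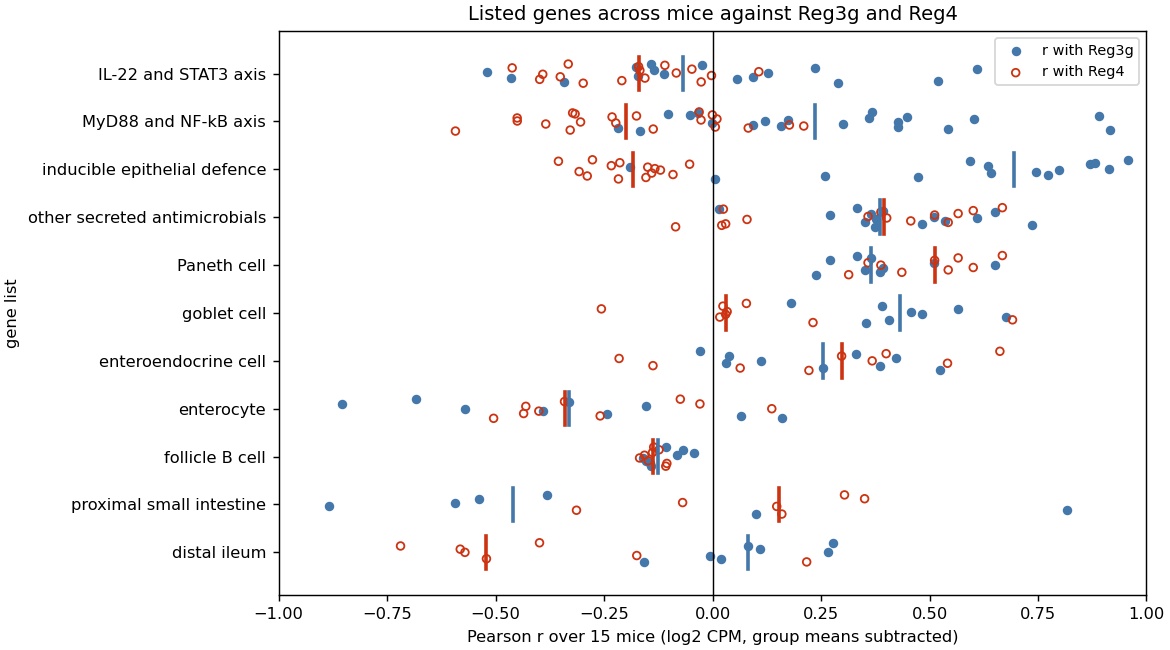
Pearson r over 15 mice of each listed gene with Reg3g (filled points) and Reg4 (open points), in log2 CPM with group means subtracted, with a bar for the median of each list. Inducible defence genes lie to the right for Reg3g (median 0.69) and to the left of 0 for Reg4 (median -0.18).

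Between the groups, 0 genes of these lists had an adjusted p under 0.05 in edgeR in any comparison. Between high and low PAC none had an unadjusted p under 0.05 either, and in low PAC against water, beside 3.61% of all genes, 1 interleukin-22 and STAT3 gene, 3 MyD88 and NF-kB genes, 2 enterocyte markers and 1 proximal marker had one, all lower, as did 2 enteroendocrine markers, 1 higher and 1 lower. No gene of the other lists had one there. DESeq2 called 0 genes of any list in these 2 comparisons. For high PAC against water, 13 of 16 interleukin-22 and STAT3 genes had a fitted fold change below 0, 6 of them with an unadjusted p under 0.05, beside 10.4% of all genes lower at that p. Under upper-quartile scaling the counts were 10 and 4, while over all genes the split of such calls went from 628 higher and 1500 lower to 1505 higher and 816 lower. Il22ra1, the receptor subunit for interleukin-22, had 36.6 ± 0.83 FPKM with water and 28.4 ± 7.18 with high PAC (SD, n = 5; log2 fold change -0.46, adjusted p = 0.211 in edgeR), and Stat3 had 37.9 ± 1.66 and 32.4 ± 5.97 (-0.32, adjusted p = 0.260 in edgeR). Il22ra2, a soluble receptor that binds interleukin-22, had 0.29. DESeq2 called 1 gene of this list, Il10rb, the second subunit of the receptor, at a log2 fold change of -0.17 (adjusted p = 0.0451).

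Of the 20 genes of the MyD88 and NF-kB axis, 2 had an unadjusted p under 0.05, both lower, near the 10.4% of all genes lower at that p. The list median was -0.06 beside 0.00 over all genes, with 13 of the 20 fitted below 0. Under upper-quartile scaling it was 0.005 beside 0.07 over all genes, with 10 below 0. Il18 had 28.6 ± 5.71 FPKM with water and 18.4 ± 2.70 with high PAC (log2 fold change -0.73, adjusted p = 0.221 in edgeR), while Tnfaip3 (-0.58), Nfkbia (-0.39) and Tlr9 (-0.36) followed in size. Of the inducible defence genes, 12 of 14 were below 0 (11 under upper-quartile scaling) and 2 had an unadjusted p under 0.05. They were led by Saa1 (-1.36), Nos2 (-1.28), Duox2 (-1.24) and Duoxa2 (-0.59), with adjusted p of 0.300 to 0.649 in edgeR. The other secreted antimicrobials went the other way in their median, 0.16, with 1 of 14 at an unadjusted p under 0.05, higher, beside 628 of all 14386 genes. This was Defa30, a Paneth cell defensin, with 2772 ± 744 FPKM with water and 3944 ± 784 with high PAC (log2 fold change 0.42, adjusted p = 0.333 in edgeR), and Defa17 (0.29), Defa22 (0.28) and Defb1 (-0.33) were next in size.

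Of the cell type lists, all 9 enterocyte markers were below 0 with high PAC under TMM and under upper-quartile scaling, with a median log2 fold change of -0.38 and 6 of 9 at an unadjusted p under 0.05, beside 1500 of all 14386 genes lower at that p (3 of 9, beside 816 genes, under upper-quartile scaling). Apoa1 (-0.50) and the glucose transporter Slc5a1 (-0.59) were called by DESeq2 (adjusted p = 0.0361 and 0.0498), and Sis (-0.61) and Anpep (-0.53) were not. Neither Paneth nor goblet cell markers had a member at an unadjusted p under 0.05 in edgeR, although 1 goblet marker passed, higher, under upper-quartile scaling. Their largest values were 0.27 for Defa24 and 0.25 for Itln1, beside the defensins above, and 0.26 for Tff3, 0.21 for Zg16, -0.19 for Fcgbp and 0.19 for Spink4. In the enteroendocrine list Sct (0.29), Tph1 (-0.29) and Cck (-0.23) followed Gcg. Apoa4, an apolipoprotein of the proximal list, had a log2 fold change of -1.17 (adjusted p = 0.163 in edgeR, 0.00494 in DESeq2), beside Gata4 (-2.48), Lct (-1.77) and Fabp1 (0.46). The median of the 6 tested proximal markers, -0.63, was the lowest of all lists under TMM and under upper-quartile scaling, and that of the 7 distal markers was -0.05 (0.02 under upper-quartile scaling). In the distal list the values were -0.37 for Fgf15, 0.35 for Fabp6, -0.15 for Osr2 and -0.08 for Guca2a. The follicle B cell markers Ms4a1 (0.48), Cd79a (0.18), Pax5 (-0.16) and Cd79b (0.15) had standard errors of 0.92 to 1.32, and the acinar markers Cela1 and Clps had 0.19 and 0.17. The part of these cell types in the levels of the Reg genes was not tested.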

How the data were processed

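RNA-seq of 15 mice, 5 in each of 3 groups, was analysed from the deposited table of each mouse. Paired 100-base BGISEQ-500 reads were cleaned by the authors with SOAPnuke and aligned with Bowtie2 to the mm10 assembly. Their files give a deposited expected count per gene, an estimate of fragments without normalization. The submitters' processing notes also name HISAT and DESeq2. The FPKM deposited by the authors, with 2 decimals, scale the fragments by gene length and library. The counting tool was not given in the sources used here. Genes missing from a file were given 0.

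Rounded expected counts were compared with edgeR 4.0.16 (TMM, filterByExpr, quasi-likelihood) in R 4.3.3, with 1 model of all mice and Benjamini-Hochberg adjustment over 14386 genes. DESeq2 1.42.0, limma 3.58.1 on log2(FPKM + 0.1), upper-quartile scaling, no filter, 2 groups only, a replicate block and leaving out each mouse were alternatives. The DESeq2 adjusted p of Reg1 for high PAC against water was NA. Single values were compared by two-sided exact permutation tests, and the 10 pairs of genes by 100000 permutations within groups. With mice as the replicates, p-values measure the spread between 5 mice of a group. The sequences and their starts are from RefSeq, with all 7 Reg genes matched, and positions from GENCODE M21. The tests were tested on simulated data.

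The members and lists were chosen with earlier results of these data known. The rule for named genes took all 5 Reg genes, the 4 genes with the largest absolute log2 fold change in high PAC against water of each list (and any with an adjusted p under 0.05), and the 5 genes most like each Reg gene. Of the genes so chosen, 1 is not reported here. Genes named by their correlation within a list, and those that DESeq2 called, were named after their values were seen.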

Additional observations from a re-analysis of the deposited data

Results flagged for a closer look

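Dixon's limit of 0.71 for 5 mice was passed in 5 of the 21 groups of values checked. For normally distributed values chance alone flags about 1 in 20. The values were taken as FPKM and as ratios without a log, so that rate may not hold here, and log2 values were not checked. In the low PAC group, mouse 2 stood apart from the other 4 as the highest for Reg3g (5722 FPKM), Reg3b (9637 FPKM), Reg1 (2.93 FPKM) and the summed FPKM of the 5 genes (15500), and these are not separate events, as Reg3g and Reg3b made up 99.1% of that sum and the genes went together across mice. In the high PAC group, mouse 5 stood apart with the highest ratio of Reg3b to Reg3g (4.31, beside a group median of 2.72).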

How the results depend on the processing

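Of 672 recomputed values for 47 results, 614 kept their direction and side of the threshold. DESeq2 moved the count of Reg genes called in high PAC against water from 0 to 1 (Reg4) and that of the interleukin-22 and STAT3 genes from 0 to 1 (Il10rb). The Reg3a log2 fold change between high and low PAC turned to 0.022 under upper-quartile scaling and 0.043 with limma. Without subtracting group means, 1 pair of Reg genes in place of 3 had an adjusted permutation p under 0.05, and r turned to -0.14 for Reg3b with Reg3a and to 0.15 for Reg3a with Reg4. The cause of these changes was not tested.

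Leaving out 1 mouse gave 1 to 3 such pairs, with r of -0.18 to 0.13 for Reg3g with Reg3a, -0.15 to 0.19 for Reg3b with Reg3a, -0.35 to 0.18 for Reg3a with Reg4 and -0.036 to 0.19 for Reg1 with Reg4. The log2 fold change of Reg3a then ranged from -0.0036 to 0.16 (high PAC against water), -0.017 to 0.17 (low PAC against water) and -0.10 to 0.081 (high against low PAC), and between high and low PAC that of Reg3g from -1.43 to 0.67 and that of Reg3b from -1.03 to 0.59. For summed Reg FPKM the log2 difference ranged from -1.51 to -0.95, -1.61 to -0.72 and -0.50 to 0.42 in the same order, and for the ratio of Reg3b to Reg3g in high PAC against water from 0.26 to 0.50. For Reg4 in high PAC against water it was 0.71 to 0.98 (adjusted p 0.0875 to 0.287 in edgeR).

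The labels name no pairing, and the correlations of same-numbered mice ranged from -0.31 to 0.45. In high PAC against water they ran from -0.216 for number 5 (mean with other numbers 0.0477) to 0.445 for number 3 (mean with other numbers -0.107). So few values cannot decide whether the numbers pair the samples. With the replicate block, 0 Reg genes were called in any comparison, and the log2 fold changes in low PAC against water were -1.06 for Reg3g and -0.85 for Reg3b, and between high and low PAC -0.27 and -0.15. Not every sample correlated best with its own number. Depth limits Reg1, with 12 to 39 counts, and Reg2 and Reg3d, which were not tested.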
